A study of Homo sapiens with 6 samples.

Results

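Transcripts of 9 genes of superoxide and peroxide removal were followed in A549 cells exposed to polystyrene microplastics (PS-MP). They were the superoxide dismutases SOD1, SOD2 and SOD3, the catalase CAT, the glutathione peroxidases GPX1, GPX2, GPX3 and GPX8, and the globin CYGB. All were taken by symbol from a table of 62710 genes, in which each of the 9 symbols had 1 gene ID. A549 cells come from a human lung adenocarcinoma and are an established line. Their KEAP1 gene is mutated, and they are known for constantly active NRF2, the transcription factor of many antioxidant genes. RNA-seq libraries came from 3 untreated controls and from 3 PS-MP samples, the latter labelled 20 mg/mL and 48 h, all of the same line in the same medium with serum. The dose is printed as labelled, and its unit could not be checked. The labels do not state separate cultures for the libraries of a group, so that the p-values rest only on how these samples vary, variation that may be technical.

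Superoxide dismutases turn superoxide into hydrogen peroxide. SOD2 does so with manganese in the mitochondrial matrix, SOD1 with copper and zinc mainly in the cytosol, and SOD3 with copper and zinc outside the cell. Catalase in peroxisomes and the glutathione peroxidases then remove the peroxide; GPX1, GPX2 and GPX3 carry selenocysteine in the active site and GPX8 carries cysteine. SOD2 is a long-known target of NF-kB, the inflammatory transcription factor named in the series title, and GPX2 of NRF2. Cytoglobin is a haem protein that binds oxygen and nitric oxide and is best known from fibroblasts and related cells.

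The libraries held between 17013293 and 21316451 counts, which places 3 counts between 0.137 and 0.177 CPM (counts per 1000000, TMM-normalised). Replicate 3 stood apart in both groups. The correlation of log2 CPM with the other controls was 0.984 and 0.985 for control replicate 3, against 0.994 between those others. The values for PS-MP replicate 3 were 0.984 and 0.981, against 0.992. The keratin KRT18 lay at 2299 to 2679 CPM in all libraries, whereas the epithelial adhesion gene EPCAM lay at only 1.75 to 2.83 CPM. Another epithelial adhesion gene, CDH1, lay at 50.3 to 118 CPM. The keratins KRT8 and KRT19 lay at 3270 to 4067 and 11.2 to 23.5 CPM.

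SOD2, GPX1 and CYGB were higher in the PS-MP libraries and no member was lower. In the quasi-likelihood test of edgeR, Benjamini-Hochberg adjusted over all 15458 tested genes, 3 of the 8 tested members passed as higher, where 4.91% of all tested genes were called higher and 9.56% in either direction. None passed as lower, where 4.65% of all tested genes did, nor did any at an unadjusted p under 0.05 or by DESeq2. In 6 of the 8 the control and PS-MP ranges of CPM were separate, as they were in 32% of all tested genes. CAT, GPX2, GPX3, GPX8 and SOD1 did not pass, and SOD3 had 0 counts in every library. In bulk RNA, more transcript per cell and more cells that carry the transcript cannot be told apart.

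**Figure D1:**
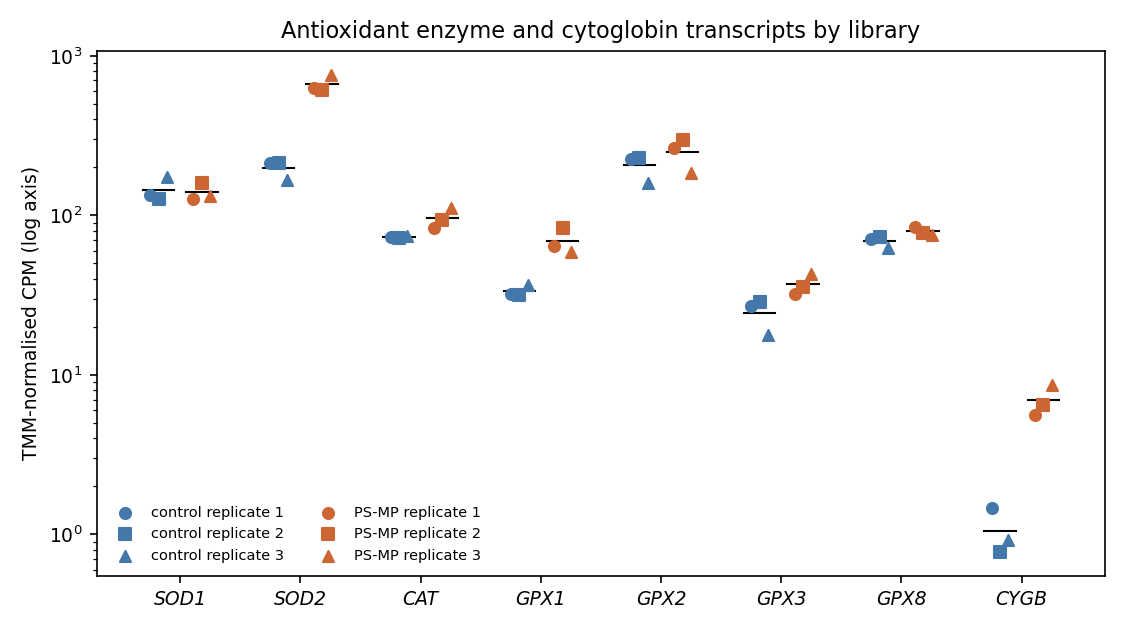
TMM-normalised CPM (log axis) of the 8 detected members in each of the 6 libraries; marker shape gives the replicate number and black bars the group means. The PS-MP libraries of SOD2, GPX1 and CYGB lie well above the controls, while those of SOD1 and GPX2 overlap them.

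SOD2 (ENSG00000291237, chromosome 6 at 159669069 to 159762529, minus strand, GRCh38) stood at 212, 214 and 166 CPM in control replicates 1, 2 and 3. In PS-MP replicates 1, 2 and 3 it stood at 632, 607 and 762 CPM. Every PS-MP library thus lay far above every control, and replicate 3 gave the lowest control and the highest PS-MP value. The mean rose 3.38-fold, from 197 ± 26.9 to 667 ± 83.4 CPM (SD, n = 3), a log2 fold change of 1.76 ± 0.13 (SE) with an adjusted p of 7.01e-05. Among the 759 genes called higher it ranked at place 51 by log2 fold change. Without both replicate 3 libraries the log2 fold change was 1.54 and the adjusted p 1.21e-07.

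The SOD2 locus spans other genes. WTAP and ACAT2, 2 protein-coding genes that overlap it on the opposite strand, are the only overlapping genes with more than a few counts, and the strand setting of the counting is not given in the sources used here. WTAP ranged over 735 to 921 counts among controls and 730 to 842 among PS-MP libraries. ACAT2 ranged over 478 to 693 and 306 to 733 counts. SOD2 itself ranged over 3600 to 4671 counts among controls and 10826 to 14368 among PS-MP libraries, and neither neighbour passed the test (log2 fold changes 0.068 and 0.11, adjusted p = 0.758 and 0.835). The pseudogene SOD2P1 had 0 counts.

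RefSeq (GRCh38.p14) lists 4 start sites for SOD2, and the 250 bases before each were searched on both strands for the GC box GGGCGG, the core TGACNNNGC of the antioxidant response element that NRF2 binds, and the kappa-B consensus that NF-kB binds. The windows held 6, 4, 1 and 1 GC boxes, no antioxidant response element core and no kappa-B match. Of all 35116 promoter windows of that length, 42.6% held a GC box, 10.9% the response element core and 7.46% the kappa-B consensus. These matches are letters in a window and no binding was measured. The window with 6 GC boxes is shown because it was, once the matches were seen, the richest of the 4. GPX1 is shown as another called member, and GPX2 as the only searched member whose window held the response element core. Each is printed 5′ to 3′ on the gene's own strand, with capitals for the GC boxes in SOD2 and GPX1 (neighbouring boxes can share bases) and for the response element core, read on the opposite strand, in GPX2. The SOD2 window is chr6:159693242-159693491, the GPX1 window chr3:49358354-49358603 and the GPX2 window chr14:64942746-64942995, all on the minus strand. No listed motif overlapped another kind of motif in them.
SOD2: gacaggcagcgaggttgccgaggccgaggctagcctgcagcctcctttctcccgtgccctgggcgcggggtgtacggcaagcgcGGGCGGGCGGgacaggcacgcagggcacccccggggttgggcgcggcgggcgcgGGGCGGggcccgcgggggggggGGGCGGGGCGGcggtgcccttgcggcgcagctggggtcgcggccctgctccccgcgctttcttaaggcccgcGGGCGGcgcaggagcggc
GPX1: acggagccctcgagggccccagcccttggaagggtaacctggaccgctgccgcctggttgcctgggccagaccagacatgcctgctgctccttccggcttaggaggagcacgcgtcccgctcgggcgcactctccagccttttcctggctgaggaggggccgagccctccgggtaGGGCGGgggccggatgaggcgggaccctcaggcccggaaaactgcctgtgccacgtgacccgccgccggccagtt
GPX2: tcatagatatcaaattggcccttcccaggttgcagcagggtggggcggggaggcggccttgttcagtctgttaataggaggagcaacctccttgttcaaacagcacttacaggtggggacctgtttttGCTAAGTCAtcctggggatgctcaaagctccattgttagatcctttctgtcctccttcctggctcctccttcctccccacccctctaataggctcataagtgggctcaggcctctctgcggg
Windows were found for 7 of the 9 members, so that SOD1 and the called member CYGB were not searched. CAT and GPX3 held 1 GC box each, GPX2 held 1 as well, and GPX8 and SOD3 held none of the 3 motifs.

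The cytosolic and extracellular dismutases did not follow SOD2. SOD1 (ENSG00000142168, chromosome 21 at 31659666 to 31668931) stood at 133, 126 and 174 CPM in the controls and at 127, 159.8 and 133 CPM in the PS-MP libraries. The groups overlapped, and control replicate 3 was the highest library. Its log2 fold change was −0.044 ± 0.14 (SE), with a 95% interval from −0.35 to 0.27 and an adjusted p of 0.883. Leaving out control replicate 3 turned the sign (0.11), as did leaving out PS-MP replicate 1 (0.022) or both libraries numbered 3 (0.15), and none of these values passed. SOD3 (ENSG00000109610, chromosome 4 at 24789912 to 24800842) was not detected, which with 0 counts allows a level of up to 0.137 to 0.177 CPM per library by counting error alone.

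Among the peroxide-removing enzymes GPX1 passed the test. GPX1 (ENSG00000233276, chromosome 3 at 49357174 to 49358605), the most widespread glutathione peroxidase of cytosol and mitochondria, had 32.0, 31.5 and 36.4 CPM in the controls. It had 64.4, 83.7 and 59.2 CPM in the PS-MP libraries. The lowest PS-MP library thus lay well above the highest control, and replicate 3 was here the lowest of the PS-MP libraries. The mean rose 2.07-fold (33.3 ± 2.70 to 69.1 ± 12.9 CPM, SD, n = 3, log2 fold change 1.05 ± 0.14 SE, adjusted p = 0.000867). The processed pseudogene GPX1P1 had 3 to 5 counts per control and 4 to 15 per PS-MP library, beside 543 to 795 and 1112 to 1494 counts of GPX1. Another protein-coding gene, ENSG00000290318, overlaps GPX1 on the same strand and had 0 counts in every library. How reads shared by both genes were counted is not given in the sources used here. Its bearing on the level and fold change of GPX1 was not tested.

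CAT and GPX3 were higher in every PS-MP library than in any control, but neither passed. CAT (ENSG00000121691, chromosome 11 at 34438934 to 34472060) had 72.7, 71.6 and 74.0 CPM in the controls and 82.7, 92.9 and 111 CPM in the PS-MP libraries. The controls lay close together and the PS-MP libraries spread more widely, with replicate 3 highest. The log2 fold change was 0.39 ± 0.12 (SE, adjusted p = 0.0623). GPX3 (ENSG00000211445, chromosome 5 at 151020591 to 151028988), the secreted plasma glutathione peroxidase, had 26.9, 28.5 and 17.7 CPM in the controls and 32.3, 35.5 and 42.9 CPM in the PS-MP libraries. Its gap was set largely by replicate 3, lowest among the controls and highest among the PS-MP libraries. The log2 fold change was 0.60 ± 0.18 (SE, adjusted p = 0.0613) and became 0.29 without both replicate 3 libraries. Both genes passed by DESeq2 (adjusted p = 0.0452 for CAT and 0.0202 for GPX3), where 5 of the 8 members and 5.43% of all tested genes were higher. They also passed with no low-count filter (0.0339 and 0.000665), where 5 members and 3.16% of all genes were higher, and without both replicate 3 libraries (0.0173 and 0.0328), where 6 members and 13.5% of all genes were higher.

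GPX2 and GPX8 did not pass either. GPX2 (ENSG00000176153, chromosome 14 at 64939152 to 64942746), the epithelial glutathione peroxidase, had 227, 229 and 160.3 CPM in the controls and 265, 296 and 185 CPM in the PS-MP libraries. Replicate 3 was the lowest library of both groups, and the groups overlapped through it. The log2 fold change was 0.28 ± 0.18 (SE, 95% interval −0.13 to 0.68, adjusted p = 0.391), and it was 0.30 with an adjusted p of 0.00924 without both replicate 3 libraries. CHURC1, which overlaps GPX2 on the opposite strand, ranged over 585 to 818 counts among controls and 761 to 975 among PS-MP libraries and rose (log2 fold change 0.44, adjusted p = 0.04); its part in the GPX2 value was not tested. GPX8 (ENSG00000164294, chromosome 5 at 55160167 to 55167297), a membrane-bound peroxidase of the endoplasmic reticulum, had 71.0, 72.7 and 62.4 CPM in the controls and 84.6, 77.5 and 75.5 CPM in the PS-MP libraries. These groups lay close together without overlapping (log2 fold change 0.21 ± 0.10 SE, adjusted p = 0.255).

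CYGB (ENSG00000161544, chromosome 17 at 76527356 to 76551175) had the steepest fold change of the 9 at the lowest detected level. It had 25, 17 and 20 counts in control replicates 1, 2 and 3, or 1.47, 0.777 and 0.916 CPM. In PS-MP replicates 1, 2 and 3 it had 97, 116 and 163 counts, or 5.62, 6.50 and 8.65 CPM. Every PS-MP library held several times the counts of any control, with replicate 3 highest. The mean rose 6.66-fold (1.06 ± 0.368 to 6.92 ± 1.56 CPM, SD, n = 3, log2 fold change 2.74 ± 0.28 SE, adjusted p = 0.000209), place 8 of the 759 genes called higher. PRCD and the lncRNA genes that overlap CYGB had at most 15 counts in any library.

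Fibroblast markers were examined because CYGB is best known from fibroblasts. Of the 8 markers 4 had enough counts to be tested and 1 rose, where 4.91% of all tested genes were called higher. The 1 was DCN, which encodes the matrix proteoglycan decorin (2.28 ± 0.114 to 4.92 ± 1.78 CPM, SD, n = 3, adjusted p = 0.0245). DCN lost its call without any 1 control or without PS-MP replicate 1 (adjusted p from 0.0518 to 0.0784). Summed over the list, these markers lay at 7.19 to 9.64 CPM in the controls and at 10.9 to 14.9 CPM in the PS-MP libraries. DCN alone lay at 2.20 to 2.41 and 3.64 to 6.95 CPM. The mean was also higher in PS-MP for LUM (2.40 and 3.48 CPM, not called), PDGFRA (0.761 and 0.837 CPM, not called) and THY1 (0.342 and 0.504 CPM, not tested). It was lower for COL3A1 (0.370 and 0.206 CPM) and PDGFRB (0.135 and 0.109 CPM), neither of them tested. COL1A2 had 0 counts in all libraries, and COL1A1 had 2.42 ± 0.393 and 2.76 ± 0.134 CPM (adjusted p = 0.648). The part of these markers in the CYGB value was not tested. Of the other globins MB, the oxygen-storing myoglobin, rose 1.59-fold (7.51 ± 0.439 to 12.0 ± 2.97 CPM, SD, n = 3, adjusted p = 0.0466), a call that was lost without any 1 library (adjusted p from 0.0530 to 0.122), by limma-voom (0.0595) and under scaling by total counts alone (0.0722). The remaining tested globin, HBQ1, did not pass (log2 fold change −0.064), and 8 of the 13 had 0 counts throughout.

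**Figure D2:**
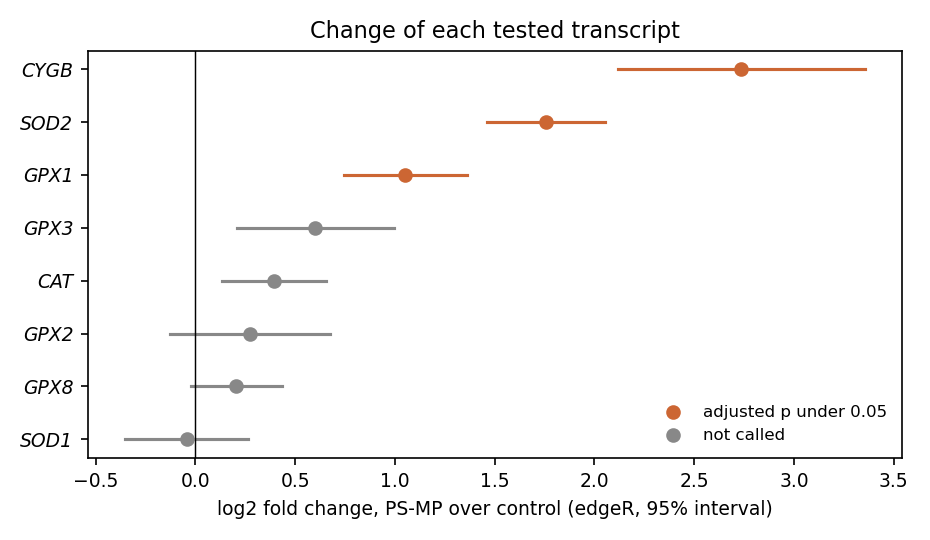
Log2 fold change of PS-MP over control with its 95% interval (edgeR) for the 8 tested members, orange where the adjusted p was under 0.05. The interval of SOD2 lies above those of GPX1, GPX3, CAT, GPX2, GPX8 and SOD1 and below that of CYGB.

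To set SOD2 beside the other members without regard to library scaling, the log2 ratio of its count to that of each other detected member was taken within each library. The ratio to SOD1 was 0.67, 0.76 and −0.07 in control replicates 1, 2 and 3 and 2.31, 1.92 and 2.52 in PS-MP replicates 1, 2 and 3. The groups were far apart, and the mean log2 ratio was higher by 1.80 ± 0.32 (SE of the difference) in PS-MP cells, a 3.47-fold rise of SOD2 relative to SOD1. The mean log2 ratio was likewise higher by 1.55 ± 0.14 against GPX8, 1.49 ± 0.31 against GPX2, 1.38 ± 0.15 against CAT and 1.14 ± 0.11 against GPX3. In these 5 ratios every PS-MP library lay above every control.

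SOD2 and GPX1 differed less clearly. Their log2 ratio was 2.73, 2.76 and 2.19 in the controls, against 3.29, 2.86 and 3.69 in the PS-MP libraries, so that PS-MP replicate 2 lay just above control replicate 2. The difference of 0.72 ± 0.30 (SE) fell to 0.33 without both replicate 3 libraries. Against CYGB the order turned: the log2 ratio was 7.14, 8.06 and 7.47 in the controls, against 6.81, 6.54 and 6.46 in the PS-MP libraries. SOD2 was thus lower by 0.96 ± 0.29 (SE) on the log2 scale relative to CYGB, with no overlap between groups. Each of the 7 ratios had p = 0.1 by a two-sided exact permutation test over the 6 libraries, raw and adjusted over the 7, and that is the smallest p that 3 against 3 libraries allow. In the fit over all genes, the 95% interval of SOD2 (1.46 to 2.05) did not overlap the interval of GPX1 (0.74 to 1.36) or of CYGB (2.12 to 3.35).

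**Figure D3:**
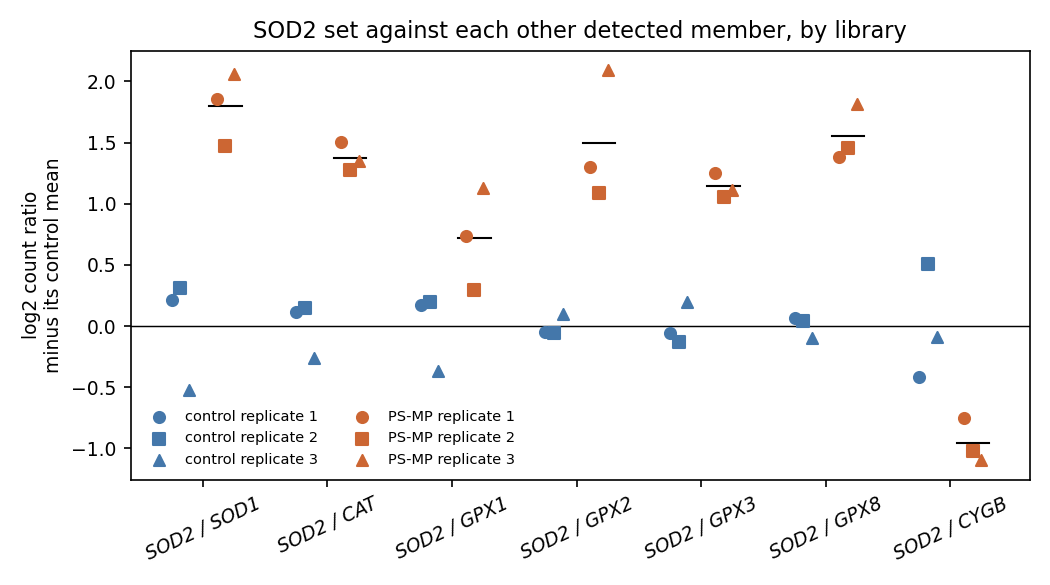
Log2 ratio of the SOD2 count to the count of each other detected member, minus the mean of that ratio in the controls, by library; black bars give the PS-MP means. The PS-MP libraries lie above the controls for SOD1, CAT, GPX1, GPX2, GPX3 and GPX8 and below them for CYGB.

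Levels of different genes were compared per kilobase of exon, with all transcripts of a gene in GENCODE release 29 merged. SOD2 was left out because its gene ID is not in that release. In the controls GPX2 was the most abundant at 137 ± 26.1 CPM per kilobase (SD, n = 3), followed by SOD1 (71.5 ± 12.95), GPX1 (23.3 ± 1.89), CAT (20.3 ± 0.336), GPX8 (17.8 ± 1.43), GPX3 (7.70 ± 1.85) and CYGB (0.358 ± 0.125). In the PS-MP libraries GPX2 stood at 166 ± 38.2, SOD1 at 69.4 ± 8.60, GPX1 at 48.3 ± 9.04, CAT at 26.6 ± 4.01, GPX8 at 20.5 ± 1.23, GPX3 at 11.7 ± 1.72 and CYGB at 2.35 ± 0.528 CPM per kilobase. The order was the same in both groups, and no neighbours in it overlapped within either group.

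The genes whose pattern was most like that of SOD2 were sought among 11139 genes by Pearson correlation of log2 CPM over the 6 libraries. The highest values with a symbol were those of ZNF319 (0.999), SPATA18 (0.998), SULF2 (0.998), HSD17B12 (0.998) and MRAS (0.997). All 5 rose (1.46-fold, 3.11-fold, 3.52-fold, 1.48-fold and 1.48-fold), and like SOD2 all 5 had their lowest control and highest PS-MP value in replicate 3. These correlations run across the same 2 groups and the same libraries and are given as a description.

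Of 18 tested genes among the other enzymes of peroxide and thiol reduction 2 rose and none fell, which is 11.1% against the 9.56% of all tested genes, and their median log2 fold change was 0.10 against 0.0019 over all tested genes. PRDX5, a peroxiredoxin of mitochondria and peroxisomes, rose 1.51-fold (295 ± 13.7 to 446 ± 66.1 CPM, SD, n = 3, adjusted p = 0.01). GLRX, the cytosolic glutaredoxin, rose 1.48-fold (157 ± 13.2 to 232 ± 23.1 CPM, adjusted p = 0.00906) and lost its call without control replicate 1 or 2 (adjusted p = 0.0538 and 0.0519). GPX4, the peroxidase of membrane lipids, had 153 ± 8.78 and 152 ± 15.95 CPM (adjusted p = 0.964). PRDX1 (log2 fold change −0.090), the mitochondrial peroxiredoxin PRDX3 (−0.030), glutathione reductase GSR (−0.078), thioredoxin TXN (0.21) and its reductase TXNRD1 (0.031) did not pass. The signs of GPX4, PRDX1, PRDX3, GSR and TXNRD1 turned under other settings. With both replicate 3 libraries left out 9 of the list were higher, TXN and TXNRD1 among them (log2 fold changes 0.53 and 0.29), where 13.5% of all tested genes were called higher.

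Of the oxidases that produce superoxide or peroxide, 8 of 20 had enough counts to be tested. None fell, where 4.65% of all tested genes were called lower. XDH and AOX1 were among those that rose, where 4.91% of all tested genes were called higher. XDH, xanthine dehydrogenase, rose 2.16-fold from 3.68 ± 0.140 to 7.97 ± 0.249 CPM (SD, n = 3, adjusted p = 0.00162). AOX1, aldehyde oxidase, rose 2.01-fold (34.0 ± 4.59 to 68.2 ± 21.7 CPM, adjusted p = 0.00891). CYBA, the small membrane subunit of NADPH oxidases, had 93.8 ± 6.84 and 120.3 ± 8.56 CPM and did not pass (adjusted p = 0.0522). It did pass by DESeq2 (0.0429), with upper-quartile scaling (0.0412), without control replicate 3 (0.0468) and without both replicate 3 libraries (0.00446). In the other 11 alternative settings CYBA did not pass (adjusted p of up to 0.224). NOX4 had 0 counts in all libraries.

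Genes that supply the metals and selenium of these enzymes were listed too. Of 12 tested copper and manganese genes 2 rose and none fell, where 4.91% of all tested genes were called higher and 4.65% lower: SLC39A8, an importer of manganese and zinc (62.3 ± 7.09 to 112 ± 25.4 CPM, SD, n = 3, 1.79-fold, adjusted p = 0.00669), and SLC31A1, the copper importer (44.0 ± 0.0531 to 58.9 ± 2.01 CPM, 1.34-fold, adjusted p = 0.0182). SLC31A1 lost its call without control replicate 1 or 2, without PS-MP replicate 1 (adjusted p between 0.0873 and 0.0955) and under scaling by total counts alone (0.0504). CCS, which loads copper into SOD1, had 13.7 ± 1.27 and 18.1 ± 1.88 CPM (adjusted p = 0.097). Without both replicate 3 libraries 7 of the 12 were higher, where 13.5% of all tested genes were. Of 11 genes of selenocysteine insertion and selenium supply none passed by edgeR, where 9.56% of all tested genes did, none did so at an unadjusted p under 0.05, and none passed by DESeq2 or limma-voom. Without both replicate 3 libraries 1 of the 11 was higher, where 13.5% of all tested genes were.

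**Figure D4:**
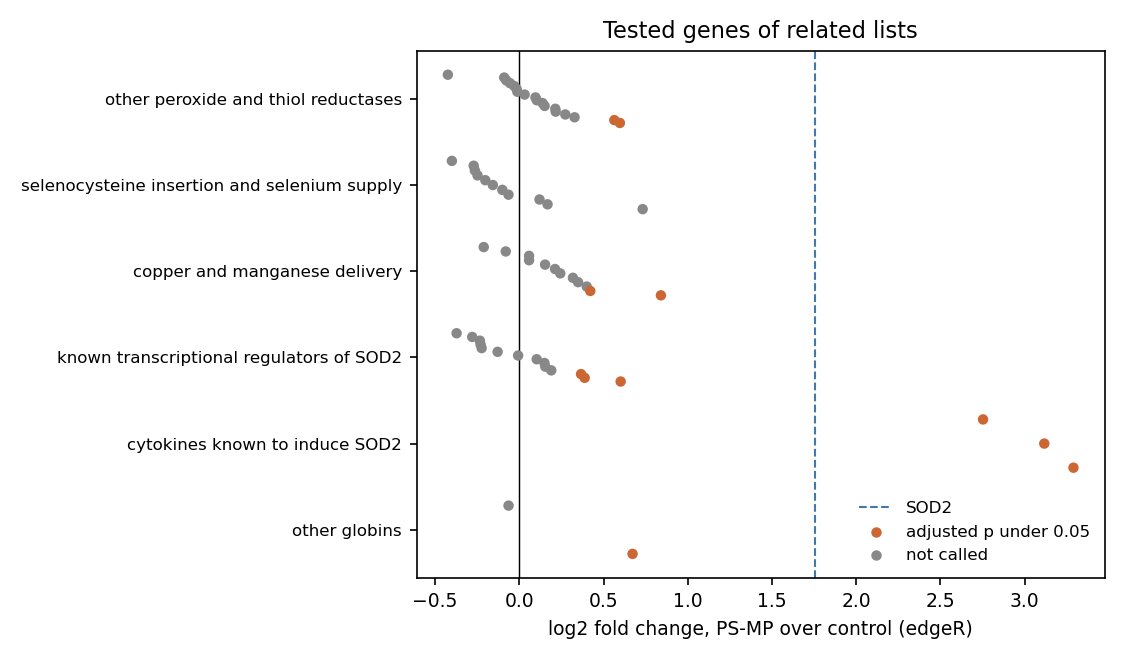
Log2 fold change of PS-MP over control (edgeR) of each tested gene in 6 of the 12 gene lists, orange where the adjusted p was under 0.05. The oxidase list is not among those drawn. The dashed line marks SOD2 at 1.76. The genes beyond that line are IL6, IL1A and IL1B, of which IL1A and IL1B entered the test through the PS-MP libraries.

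Known regulators and inducers of SOD2 were listed as well. Of 14 transcription factors and cofactors 3 rose and none fell, where 4.91% of all tested genes were called higher and 4.65% lower: the NF-kB subunit RELB (1.52-fold, 9.70 ± 1.05 to 14.7 ± 1.51 CPM, SD, n = 3, adjusted p = 0.0272), CEBPB (1.29-fold, adjusted p = 0.0302) and STAT3 (1.31-fold, adjusted p = 0.0479). RELB and CEBPB each lost the call when replicate 1 or replicate 2 of either group was left out (adjusted p between 0.0754 and 0.12 for RELB, between 0.0921 and 0.153 for CEBPB). CEBPB also lost it under scaling by total counts alone (0.0829) and with no low-count filter (0.0529). STAT3 lost its call without any 1 library except PS-MP replicate 3 (adjusted p between 0.0921 and 0.181), under scaling by total counts alone (0.0871) and with RLE scaling (0.0504). RELA (53.9 ± 2.64 and 57.9 ± 5.34 CPM, adjusted p = 0.6), NFKB1 (log2 fold change 0.15, adjusted p = 0.462) and FOXO3 (0.19, adjusted p = 0.521) did not pass. Besides the 3 that rose, NPM1 (log2 fold change −0.37) and SP1 (−0.23) had an unadjusted p under 0.05, both lower in PS-MP. Neither passed after adjustment (adjusted p = 0.106 and 0.188). The median log2 fold change of the 14 was 0.048, against 0.0019 over all tested genes. Without both replicate 3 libraries 4 of the 14 were higher and 4 lower, where 13.5% of all tested genes were higher and 13.1% lower.

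Among 6 cytokine genes whose products are known to induce SOD2, IL6, IL1A and IL1B were tested. All 3 rose, where 4.91% of all tested genes were called higher. IL6 had 10, 12 and 12 counts in the controls, against 83, 97 and 85 in the PS-MP libraries (8.67-fold, adjusted p = 7.01e-05). IL1A had 4, 8 and 1 counts against 39, 44 and 33 (adjusted p = 0.00131), and IL1B had 10, 11 and 2 against 34, 49 and 59 (adjusted p = 0.00337). Every PS-MP library exceeded every control in all 3, yet their levels stayed under 6 CPM, and IL1A and IL1B entered the test through the PS-MP libraries, which fixes the direction in which they could differ. TNF had 4, 1 and 0 counts in the controls, against 5, 7 and 3 in the PS-MP libraries, too few to be tested, and IFNG had 0 throughout.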

How the data were processed

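The values used were whole-number read counts per Ensembl gene, 1 column per library, as deposited by the authors in a table that carries the name of featureCounts. The build GRCh38 and the tools DESeq2, RSEM, StringTie, HISAT2 and fastp are named, without roles or versions, per the submitters' processing notes. Strand setting, treatment of multi-mapping reads and annotation release are not given in the sources used here, so counts of overlapping genes and of genes with pseudogenes are uncertain. Per the labels, libraries were poly(A)-selected and stranded.

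These counts went into edgeR 4.0.16 (R 4.3.3): filterByExpr on the group (15458 of 62710 genes), TMM scaling, and the two-sided quasi-likelihood F test with robust dispersions, Benjamini-Hochberg adjusted at 0.05. Every adjusted p comes from this test unless another tool is named. The SE of a log2 fold change is its size divided by the root of F. Ratios used counts plus 0.5 and were tested by exact permutation in scipy 1.17.1. The procedure was run on simulated counts only to check that set fold changes were recovered. False calls were not part of that check. Alternatives were DESeq2 1.42.0, limma-voom (limma 3.58.1), other scalings and filters, the replicate number as a block, and libraries left out.

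Members, gene lists and tests were chosen with earlier results of these data known. Named genes are the 9 members, the called genes of each list (at most 5), 12 genes fixed whatever their result, and the 5 genes most correlated with SOD2 whose log2 CPM averaged 2 or more. The epithelial markers, the fibroblast markers other than DCN, HBQ1, NPM1, SP1, the overlapping genes and pseudogenes, and list genes at or near 0 counts were added after their values were seen. Markers of leukocytes (20.2 to 24.7 CPM summed in the controls, 24.8 to 38.2 in PS-MP, mostly CD14) and endothelium (at most 1.06 CPM) were mostly too low to be tested: 2 of 8 leukocyte and 0 of 5 endothelial markers were tested, and neither of the 2 passed by edgeR, DESeq2 or limma-voom or at an unadjusted p under 0.05. Some genes of the lists that passed the test are not reported here.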

Additional observations from a re-analysis of the deposited data

How the results depend on the processing

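SOD2, GPX1 and CYGB kept their direction and their call in all 15 alternatives, with log2 fold changes of 1.54 to 1.82, 0.89 to 1.22 and 2.47 to 3.01. GPX8 passed in none. The count of members called higher was 3 without any 1 library, 5 by DESeq2 and with no low-count filter (where 5.43% and 3.16% of all tested genes were higher), and 6 without both replicate 3 libraries. The members added were CAT (log2 fold change 0.39, 0.39 and 0.28) and GPX3 (0.60, 0.59 and 0.29), and in the last setting GPX2 (0.30). SOD1 ran from −0.15 to 0.11 without 1 library and was 0.15 without both replicate 3 libraries. Over all genes, leaving out 1 library gave 771 to 1696 called genes (356 to 885 higher, 415 to 811 lower), and leaving out both replicate 3 libraries gave 4129 (2093 higher, 2036 lower); the cause was not tested.

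Same-numbered libraries did not deviate together (correlations of −0.095, −0.11 and −0.18), so the numbers are not taken as pairs. With the replicate number as a block, 750 genes were called (333 higher, 417 lower) and 3 members were higher (log2 fold changes 1.76 for SOD2, 1.04 for GPX1 and 2.73 for CYGB). The block also ended the calls of GLRX (adjusted p = 0.0527), DCN (0.0667), SLC31A1 (0.0910), RELB (0.0959), STAT3 (0.107), CEBPB (0.128) and MB (0.128).

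Some uncalled genes changed sign. Without 1 library the log2 fold change ran from −0.10 to 0.056 for GPX4, −0.15 to 0.048 for GSR, −0.23 to 0.044 for PRDX1, −0.078 to 0.028 for PRDX3 and −0.072 to 0.20 for TXNRD1. Without both replicate 3 libraries it was 0.084 for GPX4, 0.067 for GSR, 0.15 for PRDX1 and −0.036 for FOXO3, and under scaling by total counts alone it was −0.038 for TXNRD1. The ratios of SOD2 kept their direction without any 1 library, without both replicate 3 libraries and with nothing added to the counts; scaling per kilobase and averaging over same-numbered libraries cannot move these differences. Depth limits CYGB and the cytokine genes, whose controls held 25 counts or fewer, and 3 libraries per group limit the ratio test.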
